A study of Mus musculus with 12 samples.

Results

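Retinoic acid is made from vitamin A inside the testis, and 9 mouse genes that act in its uptake, synthesis, binding and breakdown are described here: Rbp4, Stra6, Rdh10, Rdh11, Dhrs3, Aldh1a1, Aldh1a2, Crabp1 and Cyp26b1. They were chosen by name from the gene rows of the RNA sequencing tables, and where a name stood on several rows the row with the highest mean was taken. In the spermatocyte libraries 9 of the 9 genes were read among 36987 rows. In the GC2 libraries 8 of the 9 were read among 25911 rows, and Crabp1 was not analysed here.

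The 12 libraries formed 4 groups of 3. They were GC2 cells with knockdown of Phb, the gene of the inner mitochondrial membrane protein prohibitin, control GC2 cells, spermatocytes of Phb conditional knockout mice, and spermatocytes of control mice. GC2 is an immortalised line labelled as mouse spermatocytes, obtained from a cell bank and grown with serum. The mouse cells were released from seminiferous tubules by enzymes and enriched by flow sorting on a Hoechst DNA stain. No label states the knockdown method, the Cre driver, or the strain and age of the mice. The submitters speak of biological replicates without naming a culture or an animal for any library. A p-value here therefore covers only the scatter among these samples, part of which may be technical.

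As background, RBP4 carries retinol in blood and STRA6 is its receptor at the cell surface. Retinol dehydrogenases such as RDH10 and RDH11 oxidise retinol to retinal, DHRS3 reduces retinal back to retinol, and the retinal dehydrogenases ALDH1A1 and ALDH1A2 make retinoic acid. CRABP1 binds retinoic acid in the cytosol and CYP26B1 breaks it down. In the testis, retinoic acid induces Stra8 and with it the entry of germ cells into meiosis. Sertoli cells use mainly ALDH1A1 and germ cells mainly ALDH1A2.

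The promoters of the 3 members with the largest fold changes in spermatocytes are shown so that the DNA before each start can be read beside the levels. They are the 250 bases before a RefSeq start on GRCm38.p6, 5′ to 3′ on the gene's strand, and 8 of the 9 members matched an entry. Capitals mark AGGTCA (the retinoic acid receptor core motif), TGACG (the core of the cAMP response element), GGGCGG (the GC box) or TATAAA (the TATA box), on either strand. Rdh11 lies at chr12:79190962-79191211 on the minus strand, Aldh1a1 at chr19:20601718-20601967 on the plus strand, and Stra6 at chr9:58133825-58134074 on the plus strand.
Rdh11: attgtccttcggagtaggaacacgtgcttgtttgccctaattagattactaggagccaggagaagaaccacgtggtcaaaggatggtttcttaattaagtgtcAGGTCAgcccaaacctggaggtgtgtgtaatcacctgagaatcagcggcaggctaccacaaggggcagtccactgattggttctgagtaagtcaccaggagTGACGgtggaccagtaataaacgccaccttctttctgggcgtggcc
Aldh1a1: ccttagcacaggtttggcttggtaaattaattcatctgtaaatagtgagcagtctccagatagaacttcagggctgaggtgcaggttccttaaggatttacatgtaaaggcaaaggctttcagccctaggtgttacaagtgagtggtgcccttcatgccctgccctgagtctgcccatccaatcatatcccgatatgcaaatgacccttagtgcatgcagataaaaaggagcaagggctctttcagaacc
Stra6: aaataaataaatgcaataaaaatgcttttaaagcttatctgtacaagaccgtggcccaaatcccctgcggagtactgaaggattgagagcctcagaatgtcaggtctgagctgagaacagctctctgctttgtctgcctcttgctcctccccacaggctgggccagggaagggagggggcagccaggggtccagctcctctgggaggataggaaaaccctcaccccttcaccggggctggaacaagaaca

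The Rdh11 window held 1 AGGTCA and 1 TGACG, and the Aldh1a1 and Stra6 windows held none of the 4 motifs. Over 32536 promoter windows of the same length, AGGTCA was in 14.0%, TGACG in 17.9%, GGGCGG in 33.0% and TATAAA in 12.3%. Of the other members, Crabp1 held 5 GC boxes, Cyp26b1 held 3 GC boxes and 1 TATA box, and Rbp4 held 2 GC boxes, 1 TATA box and 1 TGACG. Dhrs3 and Aldh1a2 held none. The direct repeats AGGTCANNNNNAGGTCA and AGGTCANNAGGTCA, each in 0.00922% of all windows, were in no member's window. Nor were TGACGTCA, in 1.56%, or TCAAGGTCA, in 0.375%. AGGTCA is part of both repeats and of TCAAGGTCA, and TGACG is part of TGACGTCA. A match is a run of letters and not a shown binding site.

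Levels are FPKM, a fragment number divided by transcript length and library size. GC2 cells and spermatocytes have separate tables and were fitted apart with limma on log2(FPKM + 1), a scale that understates the fold change of low genes. The tests took rows at or above 1 FPKM in 3 or more of 6 libraries. A change was called where p, adjusted over all tested rows by Benjamini-Hochberg, was under 0.05. The knockdown libraries had 22.7, 18.4 and 19.0 FPKM of Phb, against 56.6, 54.0 and 52.4 in GC2 control (log2 fold change -1.40, adjusted p = 0.00062). The knockout libraries had 11.8, 11.3 and 11.5 FPKM, against 12.6, 13.4 and 13.9 in control spermatocytes (log2 fold change -0.18, adjusted p = 0.0074). Phb was thus only slightly lower in the libraries labelled knockout. From the step that 1 fragment makes in low values, knockout libraries held an estimated 11 to 15.4 M fragments and control spermatocyte libraries 14.5 to 15.4 M. The step was sought only within a preset range. In each library 94 to 138 of the 4724 to 6145 rows used stood at it, so the estimate is rough. Depth was not estimated for the GC2 libraries and is unknown.

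The labelled cell types were read against markers. In knockout spermatocyte libraries the summed level of 9 pachytene and diplotene markers was 45.6 to 48.2 FPKM, against 2392 to 2439 in control libraries, and that of 7 spermatid markers was 6.66 to 9.11, against 760.5 to 767.2. Of these, 5 and 3 reached the filter through the control libraries alone, and the other 4 and 4 were called lower, beside 38.5% of all tested spermatocyte rows. The sum of 20 Sertoli markers was 4516 to 4715 FPKM in knockout libraries and 1079 to 1168 in control libraries, 4.16-fold higher, with 17 of the 19 that did not pass through 1 group alone called higher, beside 40.9% of all rows. The Leydig marker sum was 252.9 to 270.6 FPKM in knockout libraries and 38.5 to 40.9 in control libraries, with 6 of 6 such markers higher. Other lists moved less. In knockout over control, the sum of spermatogonia markers was 1.09-fold and that of leptotene and zygotene markers 0.83-fold. Of such markers, 2 of 10 and 4 of 8 were higher, and 6 and 4 were lower. Peritubular myoid, endothelial and macrophage sums were 1.85-fold, 1.86-fold and 1.91-fold. That of fibroblast markers was 0.41-fold, with 4 of 5 such markers lower and 0 higher. In these bulk samples, fewer cells of a type and less RNA per cell cannot be told apart. In GC2 cells the pachytene and diplotene sum was only 2.46 to 7.39 FPKM in knockdown and 2.03 to 2.76 in control libraries. It came mainly from Mybl1 and, in knockdown replicates 2 and 3, Hspa2 (4.64 and 4.68). Stra8, Sycp3, Spo11 and Ldhc were each at or near 0. Prdm9 averaged 1.48 in knockdown and 0.923 in control, and Uchl1, listed for spermatogonia, 53.9 and 31.6. GC2 libraries thus showed little RNA of most listed markers of spermatocytes, the cell type that their label names. The sum of 8 peritubular myoid markers was 25.1 to 35.2 FPKM in knockdown and 107.9 to 116.0 in control GC2 libraries, a fall carried by Acta2, smooth muscle actin (16.9 in knockdown against 93.8 in control), with 2 of 3 tested markers lower, beside 13.9% of all tested GC2 rows. The fibroblast sum was 253.1 to 260.5 against 358.6 to 374.7 FPKM, with 1 of 5 tested markers higher (Dcn) and 4 lower. That of the Sertoli markers was 227.7 to 229.4 against 226.2 to 235.5, most of it Ctsl (171.7 against 185.7). Of 7 tested Sertoli markers, 3 were higher (Clu, Wt1 and Kitl) and 1 lower (Trf), beside 10.7% and 13.9% of all tested GC2 rows. Of 6 tested markers of a somatic or stromal line, 4 were higher and 2 lower, beside the same shares of all rows. Msln, mesothelin, was 5.56-fold, Krt19 2.46-fold and Krt18 2.03-fold (both keratins) and Vim 1.11-fold higher. The collagen genes Col1a2 and Col1a1 were 5.02-fold and 1.62-fold lower. The part of these marker changes in the GC2 results was not tested.

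**Figure D1:**
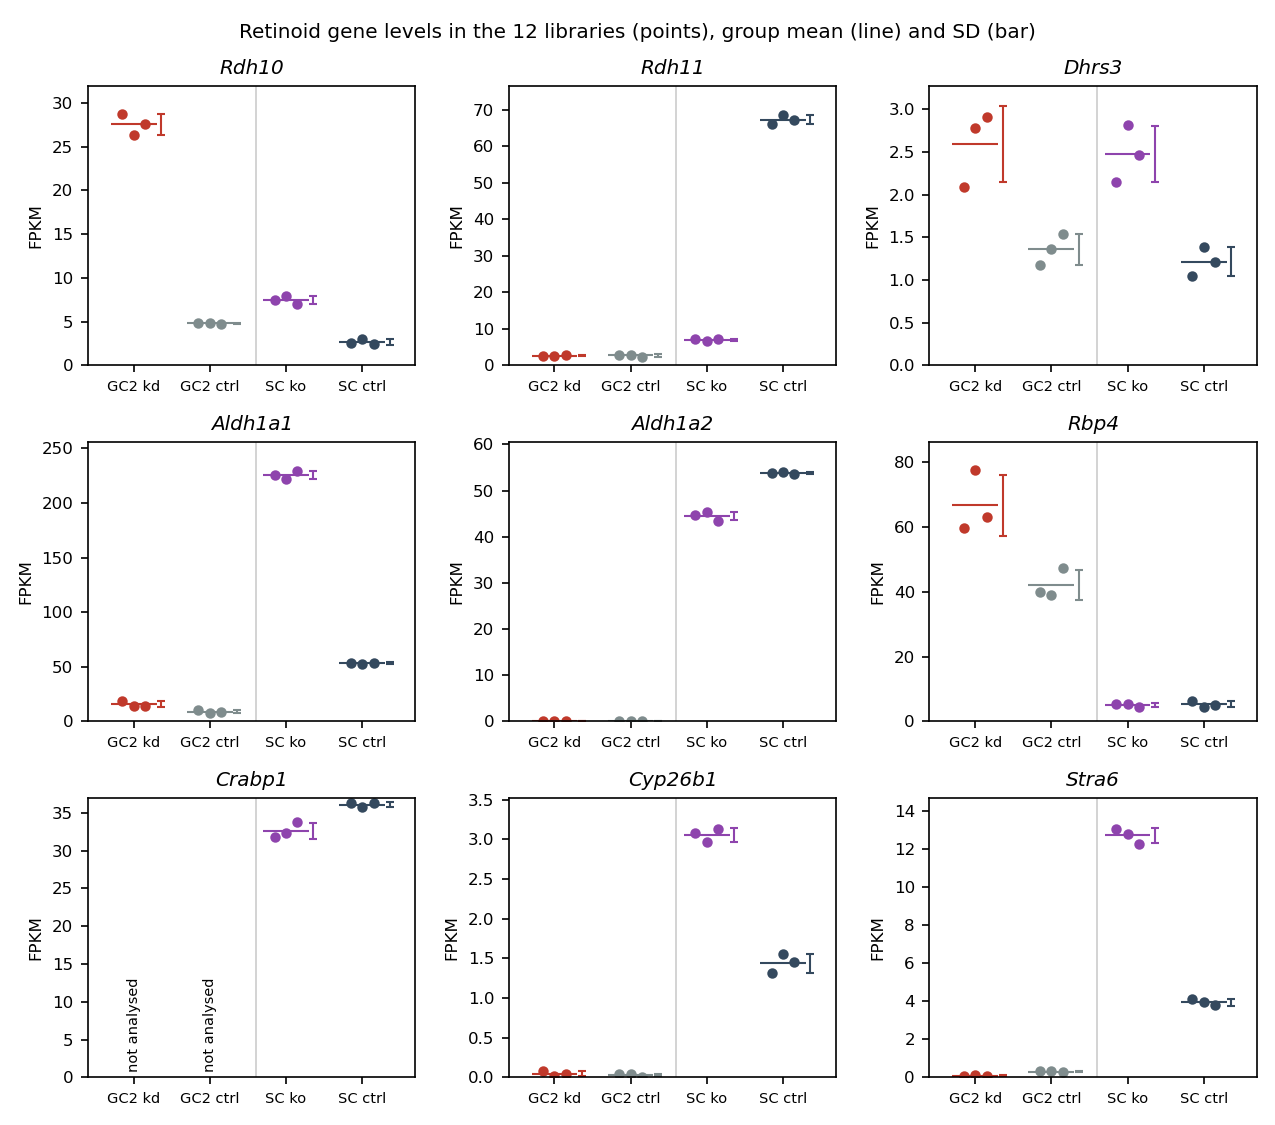
FPKM of each member in every library (linear axes from 0), with knockdown (kd) or knockout (ko) left of control (ctrl). Points are libraries, lines are group means and bars are SD. Stra6 and Aldh1a1 are higher and Rdh11 is lower in all 3 knockout spermatocyte libraries than in all 3 control libraries, while Rdh10 stands higher in both knockdown and knockout.

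Rdh10, Dhrs3 and Aldh1a1 were called higher both in knockdown GC2 cells and in knockout spermatocytes, while Rbp4 was called higher in knockdown GC2 cells and Rdh11 was lower in knockout spermatocytes. In GC2 cells 5 members were tested, and 4 were called higher, 0 lower (0 also at an unadjusted p under 0.05) and 1 not called, beside 10.7% of 10791 tested rows called higher and 24.5% called either way. The groups did not overlap for 4 of the 5 tested members, beside 44.9% of tested rows. The count of 4 fell whichever library was left out. It was 2 without control replicate 1 or knockdown replicate 2, and 1 without control replicate 2 or knockdown replicate 3. Over all rows, 744 to 962 were called higher in the fits that left out a library, beside 1153 with all libraries. In spermatocytes all 9 were tested, and 5 were called higher, 3 lower and 1 not called, beside 40.9% and 38.5% of 15957 tested rows called higher and lower and 79.4% called either way. The groups did not overlap for 8 of 9, beside 81.8%, so the shares in spermatocytes were near the background. The summed FPKM of the members was 110.7 to 123.5 in knockdown and 56.0 to 65.5 in control GC2 cells, and 338.1 to 343.1 in knockout and 225.0 to 225.5 in control spermatocytes. The median log2 fold change of the members was 0.65 in each comparison, beside -0.04 over all GC2 rows and 0.05 over all spermatocyte rows.

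Of the uptake genes, Rbp4 rose in knockdown GC2 cells and Stra6 in knockout spermatocytes. Rbp4 (chr19:38116629-38125281, minus strand, GRCm38, as are the gene positions that follow), the retinol carrier, had 59.7, 77.5 and 63.1 FPKM in knockdown GC2 libraries, against 40.0, 39.1 and 47.5 in control. All 3 knockdown libraries were above all 3 controls, a 1.58-fold difference of means (66.8 ± 9.44 against 42.2 ± 4.58, SD, n = 3 each; log2 fold change 0.65, SE 0.127, adjusted p = 0.02). The call was lost without control replicate 1 (adjusted p = 0.062), control replicate 2 (0.065) or knockdown replicate 3 (0.054). On chromosome 19, which also carries Aldh1a1, 32 of 386 tested GC2 rows were higher and 85 lower. In spermatocytes Rbp4 had 5.27, 5.42 and 4.51 FPKM in knockout libraries, against 6.25, 4.56 and 5.20 in control, and the groups overlapped (log2 fold change -0.06, 95% interval -0.34 to 0.22, adjusted p = 0.66).

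Stra6 (chr9:58063788-58153996, plus strand), the receptor for that carrier, had 13.1, 12.8 and 12.3 FPKM in knockout spermatocytes, against 4.12, 3.94 and 3.78 in control, a 3.22-fold difference. The groups lay far apart (log2 fold change 1.47, SE 0.0435, adjusted p = 4.8e-07). In GC2 cells Stra6 stayed below the test's filter, at 0.07, 0.11 and 0.06 FPKM in knockdown, against 0.33, 0.32 and 0.27 in control. Those groups did not overlap, and in a fit without the filter the log2 fold change was -0.27 (adjusted p = 0.0077).

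Of the retinol-handling enzymes, Rdh10 (chr1:16105774-16133734, plus strand) rose in both comparisons. It had 28.8, 26.3 and 27.6 FPKM in knockdown GC2 libraries, against 4.85, 4.90 and 4.78 in control, with a wide gap between the groups. The 5.69-fold difference (log2 fold change 2.29, SE 0.0511, 95% interval 2.16 to 2.42, adjusted p = 2.8e-05) stood at the 99.8 percentile of the signed changes of all tested GC2 rows. Rdh10 is on chromosome 1, where 65 of 590 tested GC2 rows were higher and 102 lower. In spermatocytes Rdh10 had 7.49, 7.90 and 7.05 FPKM in knockout, against 2.55, 3.06 and 2.49 in control (2.77-fold, log2 fold change 1.20, SE 0.0754, adjusted p = 1.5e-05), and again no library overlapped.

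Rdh11 (chr12:79174337-79192293, minus strand), the other dehydrogenase, had 7.24, 6.59 and 7.14 FPKM in knockout spermatocytes, against 66.0, 68.5 and 67.2 in control. Control was 9.62-fold over knockout (log2 fold change -3.09, SE 0.0399, 95% interval -3.19 to -3.00, adjusted p = 2.1e-08), the largest change of the 9 members by absolute log2 fold change. In the same libraries the pachytene and diplotene marker sum was 51.9-fold and the spermatid marker sum 97.1-fold higher in control than in knockout. The part of the marker changes in the Rdh11 fall was not tested. In GC2 cells Rdh11 had 2.65, 2.65 and 2.74 FPKM in knockdown and 2.97, 2.96 and 2.32 in control. Those groups overlapped, with a log2 fold change of -0.02 and a 95% interval of -0.25 to 0.20.

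The share of Rdh10 in the summed FPKM of Rdh10 and Rdh11 shows the change of balance. It was 50.9%, 54.5% and 49.7% in knockout spermatocytes, against 3.72%, 4.28% and 3.58% in control. In GC2 cells it was 91.6%, 90.8% and 91.0% in knockdown, against 62.0%, 62.3% and 67.3% in control. The sum of the pair was 14.2 to 14.7 FPKM in knockout and 68.5 to 71.6 in control spermatocytes, but 28.9 to 31.4 in knockdown and 7.10 to 7.86 in control GC2 cells.

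Dhrs3 (chr4:144892827-144928209, plus strand), which reverses the oxidation of retinol, rose in both comparisons. It had 2.09, 2.78 and 2.91 FPKM in knockdown GC2 libraries, against 1.18, 1.36 and 1.54 in control (1.91-fold, log2 fold change 0.60, SE 0.118, adjusted p = 0.019). It had 2.15, 2.81 and 2.47 FPKM in knockout spermatocytes, against 1.05, 1.39 and 1.21 in control (2.04-fold, log2 fold change 0.65, SE 0.0937, adjusted p = 0.00088), and the log2 fold change was 1.20 under quantile scaling. No library of either kind overlapped its control. The GC2 call was lost without control replicate 1 (adjusted p = 0.058), control replicate 2 (0.062), knockdown replicate 2 (0.067) or knockdown replicate 3 (0.063). On its chromosome, 4, there were 117 of 661 tested GC2 rows higher and 41 lower. The ratio of Rdh10 to Dhrs3 was 13.8, 9.46 and 9.49 in knockdown against 4.11, 3.60 and 3.10 in control GC2 cells, and 3.48, 2.81 and 2.85 in knockout against 2.43, 2.20 and 2.06 in control spermatocytes.

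**Figure D2:**
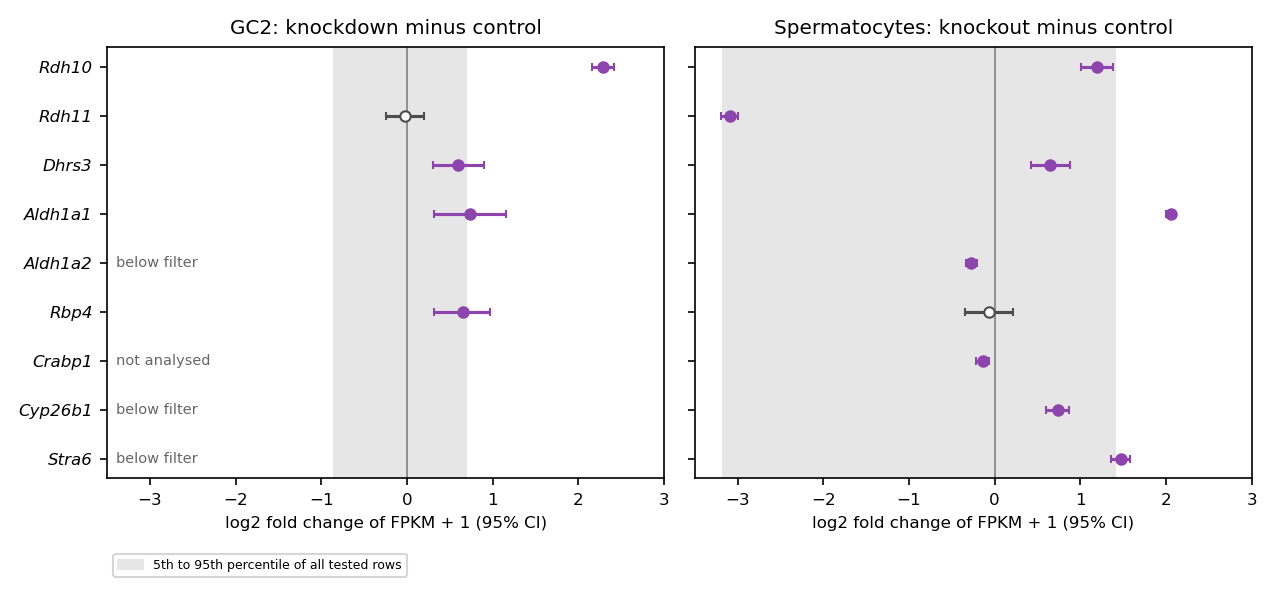
Log2(FPKM + 1) fold changes of the members, knockdown over control in GC2 cells and knockout over control in spermatocytes, with 95% intervals; filled points were called and the grey band spans the 5th to 95th percentile of all tested rows. Rdh10 has the largest rise in GC2 (2.29) and Rdh11 the largest change in spermatocytes (-3.09).

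Aldh1a1 (chr19:20492715-20643465, plus strand) and Aldh1a2 (chr9:71215789-71296243, plus strand), which make retinoic acid from retinal, moved in opposite directions in spermatocytes. Aldh1a1 had 225.6, 222.0 and 229.2 FPKM in knockout libraries, against 53.8, 52.7 and 53.8 in control (4.22-fold, log2 fold change 2.06, SE 0.0227, adjusted p = 1.4e-08). Aldh1a2 had 44.6, 45.3 and 43.5 FPKM in knockout, against 53.9, 54.0 and 53.6 in control (log2 fold change -0.27, SE 0.0241, adjusted p = 8.3e-05). Neither pair of groups overlapped. The Aldh1a2 fall was smaller under median scaling (-0.11, adjusted p = 0.005) and quantile scaling (-0.15, adjusted p = 0.0017). Aldh1a1 stood at the 99.4 percentile of the levels of tested rows in knockout and at the 95.5 percentile in control libraries. Of the pair's summed FPKM, Aldh1a1 was 83.5%, 83.0% and 84.0% in knockout libraries, against 49.95%, 49.4% and 50.1% in control, while the sum was 267.3 to 272.7 FPKM in knockout and 106.7 to 107.6 in control.

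In the mouse testis Aldh1a1 is made by Sertoli and Leydig cells, and its 4.22-fold rise stood beside the 4.16-fold rise of the Sertoli marker sum and the 6.56-fold rise of the Leydig marker sum. The Sertoli sum was carried largely by the abundant markers Clu (4.29-fold), Aard (4.08-fold) and Defb19 (4.78-fold). The median log2 fold change of the 20 Sertoli markers was 1.78, below the 2.06 of Aldh1a1. A ratio chosen after the levels were seen, Aldh1a1 per 1000 FPKM of the Sertoli marker sum, was 49.96, 47.1 and 49.6 in knockout libraries, against 49.9, 45.1 and 49.5 in control, and the groups overlapped. The same ratio was 2.66 to 2.89 in knockout against 3.37 to 3.82 in control for Stra6, 1.53 to 1.68 against 2.29 to 2.62 for Rdh10, and 0.476 to 0.596 against 0.973 to 1.19 for Dhrs3. For these 3 genes the ratio was lower in knockout, with no overlap. The Aldh1a1 rise, close to that of the sum, stood at the 99.5 percentile of the signed changes of all tested spermatocyte rows. A lower ratio is thus what most rows would give, and it is not particular to these 3 genes. The part of the marker changes in the members' rises was not tested. In GC2 cells Aldh1a1 had 18.7, 14.1 and 14.0 FPKM in knockdown, against 10.6, 7.31 and 9.06 in control (1.74-fold, log2 fold change 0.74, SE 0.169, adjusted p = 0.031), and no library overlapped. That call was lost without control replicate 2 (0.073), control replicate 3 (0.084), or knockdown replicate 1 (0.064), 2 (0.066) or 3 (0.064). Its row held 1 annotated transcript in the GC2 tables and 6 in the spermatocyte tables, so its level cannot be set across both. Aldh1a2 was at or below 0.16 FPKM in every GC2 library. Aldh1a1 and its paralog Aldh1a7 share 151 of the 4934 windows of 50 bases in the Aldh1a1 transcripts, so these 2 genes share 3.06% of the Aldh1a1 windows and reads there cannot be told apart.

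**Figure D3:**
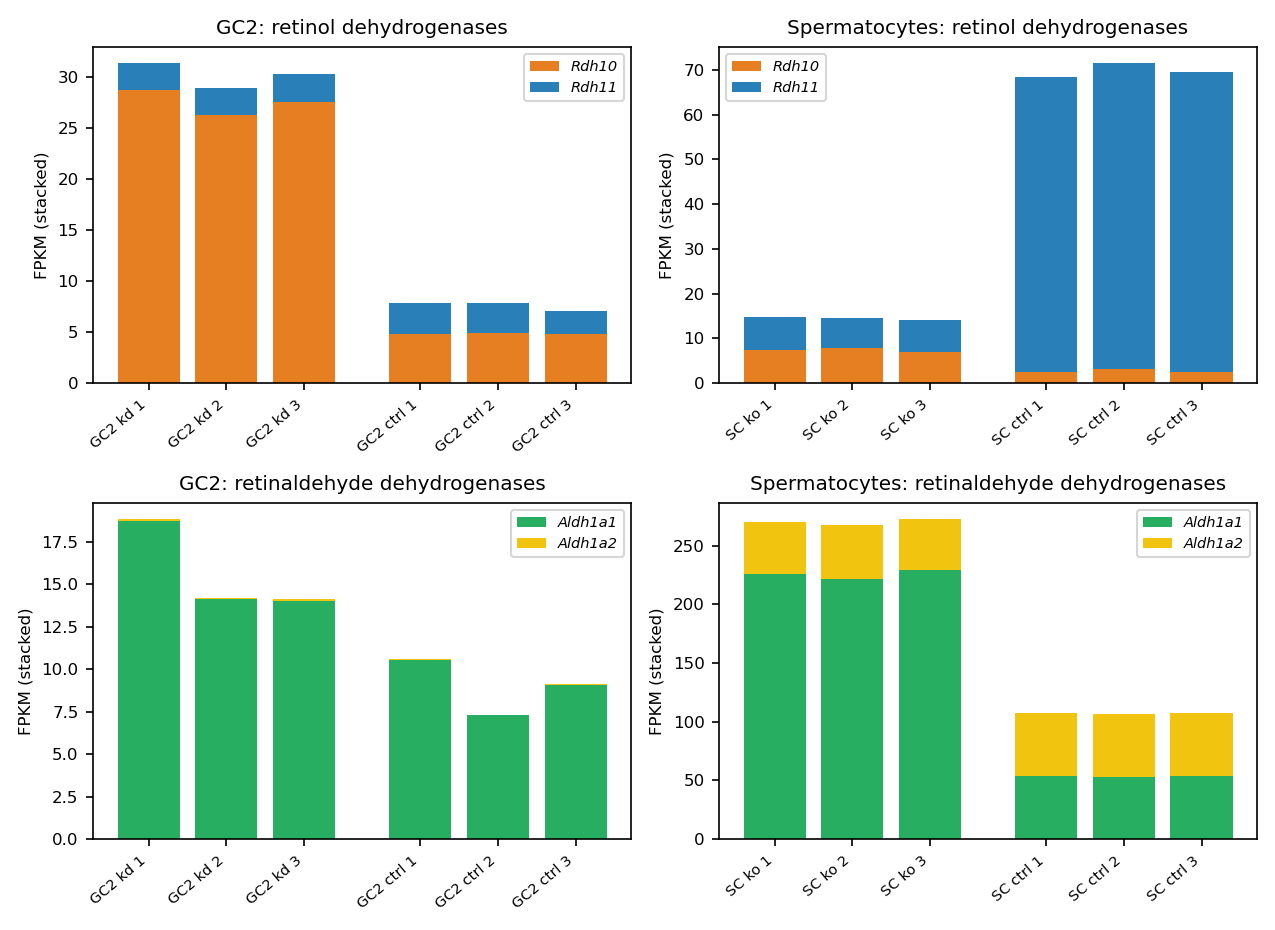
Stacked FPKM of Rdh10 and Rdh11 (top) and of Aldh1a1 and Aldh1a2 (bottom) in each library, GC2 cells on the left and spermatocytes on the right, with knockdown or knockout left of control. Aldh1a1 makes up 83.0% to 84.0% of its bar in knockout and 49.4% to 50.1% in control spermatocytes.

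Crabp1 (chr9:54764748-54773110, plus strand), which binds retinoic acid, had 31.7, 32.3 and 33.8 FPKM in knockout spermatocytes, against 36.2, 35.7 and 36.3 in control (log2 fold change -0.14, SE 0.0303, adjusted p = 0.0053). The fall was small and the groups did not overlap. It was lost when the libraries were scaled to their median (adjusted p = 0.6), by quantiles (0.45) or without mitochondrial rows (0.083). These scalings put the median over all rows at 0.21, 0.28 and 0.12 on the log2 scale, and under quantile scaling 62.0% of the calls were higher, beside 51.6% as deposited. Mitochondrial rows held 16.6% to 18.9% of the FPKM in knockout and 11.9% to 13.2% in control libraries. Cyp26b1 (chr6:84571414-84593908, minus strand), which breaks retinoic acid down, had 3.08, 2.96 and 3.13 FPKM in knockout spermatocytes, against 1.31, 1.55 and 1.45 in control (2.13-fold, log2 fold change 0.74, SE 0.0552, adjusted p = 3.6e-05), and the log2 fold change was 1.17 under quantile scaling. In GC2 cells it stayed below the filter, at 0.02 to 0.08 FPKM in knockdown and 0.01 to 0.04 in control.

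**Figure D4:**
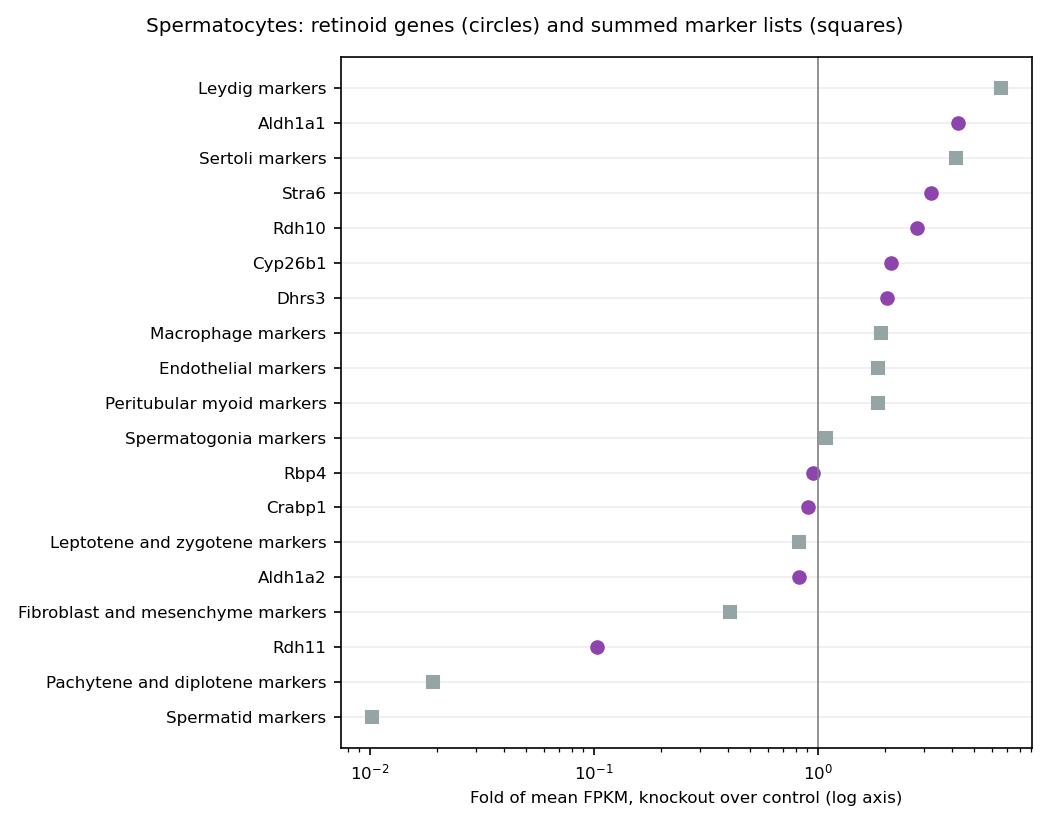
Fold of mean FPKM, knockout over control spermatocytes (log axis), for the members (circles) and for the summed marker lists (squares). Aldh1a1 at 4.22-fold lies beside the Sertoli sum at 4.16-fold. Rdh11 at 0.104-fold lies above the pachytene and diplotene (0.0193) and spermatid (0.0103) sums and below the fibroblast sum (0.408).

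Rdh10, Rdh11, Aldh1a1 and Rbp4 changed by different amounts in spermatocytes and GC2 cells. The spermatocyte fold change minus the GC2 fold change was tested in 1 fit of all 12 libraries over 8754 genes, of which 60.7% were called. Rdh10 rose less in spermatocytes (difference -1.09, SE 0.0926, adjusted p = 4.3e-06), and Aldh1a1 rose more (1.32, SE 0.178, adjusted p = 0.00012). For Dhrs3 the difference was 0.05 with an SE of 0.155 (adjusted p = 0.82), which does not show that both effects were alike. Rdh11 (-3.07, adjusted p = 5.9e-09) and Rbp4 (-0.70, adjusted p = 0.0072) also differed. The Aldh1a1 row held 1 annotated transcript in GC2 and 6 in spermatocytes, and the Rbp4 row 2 and 4. Their differences thus compare rows that were not made up alike.

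The other genes of the pathway were read from a list of 43. In spermatocytes 23 were tested, and 4 of these (Aldh1a3, Aox1, Lrat and Bco1) passed the filter through 1 group only. Of the remaining 19, 13 were called higher, 4 lower and 2 not called, beside 40.9% of all rows higher and 38.5% lower. Aldh1a7, an aldehyde dehydrogenase paralog, rose to 14.4, 16.6 and 14.7 FPKM in knockout against 2.84, 2.75 and 2.83 in control (log2 fold change 2.09). Of its windows of 50 bases, 7.49% are shared with Aldh1a1, which averaged 225.6 FPKM in knockout and 53.4 in control. Reads there cannot be told apart, and their part in the Aldh1a7 rise was not tested. Akr1b8, an aldo-keto reductase, rose by 1.98, Dhrs7 by 1.73, Fabp5, which carries fatty acids and retinoic acid, by 1.70 and Scarb1, a lipoprotein receptor, by 1.28 on the log2 scale. Lrat, which esterifies retinol, was 0.0667 FPKM in knockout against 1.22 in control. Aldh1a3 was 1.30 against 0.57 and Cyp26a1, another retinoic acid hydroxylase, 2.08 against 0.903 FPKM. Crabp2 was not called (log2 fold change 0.56, adjusted p = 0.061), but it was called higher under median (0.72, 0.025), quantile (1.07, 0.0021) and mitochondrial scaling (0.66, 0.042), each given as log2 fold change and adjusted p.

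In GC2 cells 20 of the 43 were tested, and 1 was called higher, 6 lower and 13 not called, beside 24.5% of all rows called. Scarb1 rose to 4.36 FPKM in knockdown against 3.38 in control (adjusted p = 0.027). Dhrs9, a retinol dehydrogenase read from an assembled row, averaged 1.18 FPKM in knockdown and 3.81 in control (log2 fold change -1.14), and Cyp1b1 21.4 and 31.9 FPKM (-0.57). Dgat2, an acyltransferase, Dhrs7, Retsat, which saturates retinol, and Akr1b3 fell by 0.55, 0.51, 0.46 and 0.35. Cyp26a1, Crabp2, Aldh1a3, Lrat and Stra8 were below the filter.

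Among 16 receptors and cofactors, 8 rose and 3 fell of 12 tested in spermatocytes, beside 79.4% of all rows called. In GC2 cells 1 was higher and 1 lower of 12, beside 24.5% of all rows called. Rara, the retinoic acid receptor alpha, averaged 15.8 FPKM in knockout and 6.69 in control spermatocytes (log2 fold change 1.12, adjusted p = 1.2e-06). Rarg averaged 3.13 against 3.94 (-0.26, adjusted p = 0.0099), a call lost under median and quantile scaling. Rxrb averaged 12.7 against 8.35 (0.55). Rxra had 8.75, 8.85 and 8.72 FPKM in knockout against 2.51, 7.48 and 5.76 in control and was not called (adjusted p = 0.074). It was called higher under median (adjusted p = 0.038) and quantile scaling (0.048). Ajuba, Nrip1 and Ncoa2 rose by 1.40, 1.23 and 1.02, and Nr2c2 fell by 0.92. In GC2 cells Ncoa3, a coactivator, rose by 0.70 and Nr2f2, an orphan receptor, fell by 0.32 (lost under median and quantile scaling, adjusted p = 0.057 and 0.051), while Rara (-0.48), Rarg (0.16), Rxra (-0.05) and Rxrb (0.02) were not called. Rarb was below the filter in both, as was Rxrg in spermatocytes. Under median scaling, 9 of the 12 spermatocyte genes were higher and 1 lower, and 59.2% of the calls over all rows were higher, beside 51.6% as deposited.

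Of 27 gene names listed as textbook retinoic acid targets that are not members, 18 were tested in spermatocytes. Of these, 3 (Hoxa4, Meis1 and Pdk4) passed the filter through 1 group only. Of the remaining 15, 9 were called higher, 5 lower and 1 not called, beside 40.9% of all rows higher and 38.5% lower. Under median scaling 11 were higher and 1 lower, and under quantile scaling 10 and 1. These scalings moved all rows upward, with 59.2% and 62.0% of all calls higher, beside 51.6% as deposited. Rarres1, which is induced by retinoids, averaged 37.0 FPKM in knockout against 9.11 in control (log2 fold change 1.91), and Tgm2, a transglutaminase, 19.8 against 4.58 (1.90). Gata6, a transcription factor, rose by 1.14. Hoxa4, a homeobox gene, had 0.83, 0.62 and 0.42 FPKM in knockout against 19.4, 18.2 and 18.4 in control. Stra8 had 34.4, 34.3 and 34.7 FPKM in knockout against 37.0, 36.8 and 37.2 in control (log2 fold change -0.10, adjusted p = 0.005). Under median scaling the Stra8 change was 0.06 (adjusted p = 0.043), so its direction depended on the scaling. The falls of Rec8 (-0.16), Kit (-0.13) and Sall4 (-0.12) were lost under median, quantile and mitochondrial scaling, and Kit and Sall4 stood at 0.03 and 0.04 under median scaling. The fall of Sycp3 (-0.37) was smaller but kept under median (-0.21), quantile (-0.27) and mitochondrial scaling (-0.28), with limma adjusted p at or below 0.00064. In GC2 cells 8 of the 27 were tested and limma called 0, with 1 (Gata6) at an unadjusted p under 0.05.

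The 3 genes with patterns most like each member called in both comparisons were named by the root mean square difference of centred log2(FPKM + 1) over 12 libraries. For Rdh10 they were Ticam1 (0.235), Tspan8 (0.236) and Fhl1 (0.237), for Dhrs3 Arhgap22 (0.0942), Slc7a2 (0.105) and Lman1 (0.106), and for Aldh1a1 Irs2 (0.110), Tceal8 (0.171) and Fabp5 (0.175).

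**Figure D5:**
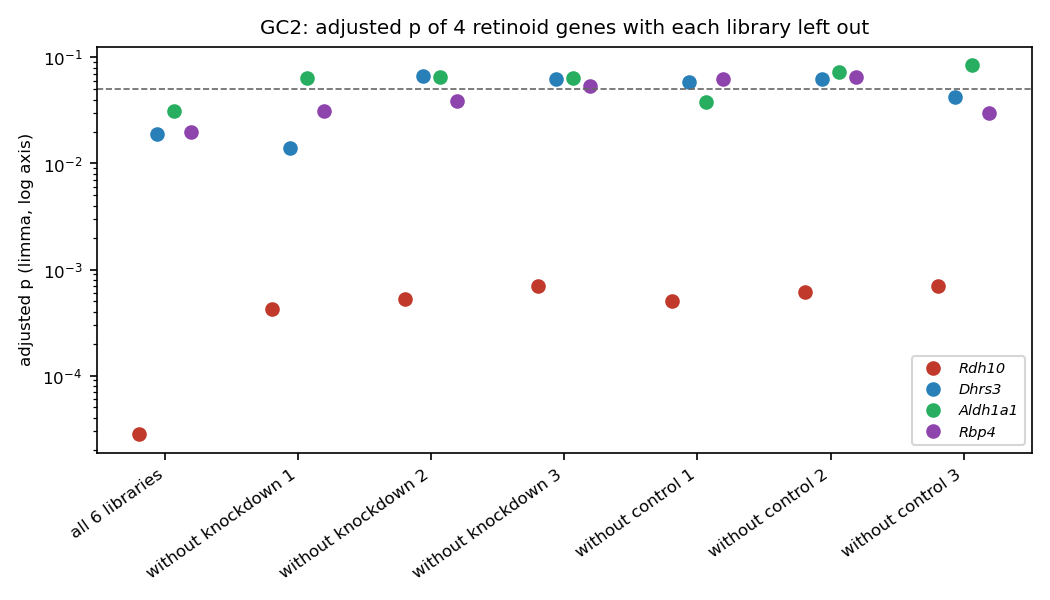
Adjusted p (limma, log axis) of the 4 members called in GC2 cells, with all 6 libraries and with each library left out in turn; the dashed line is 0.05. Rdh10 lies under the line each time, while Dhrs3, Aldh1a1 and Rbp4 lie above it in 4, 5 and 3 of the 6 fits that leave out a library.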

How the data were processed

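The 12 libraries (4 groups of 3) were prepared from total RNA with a directional kit, per the labels' protocols. The deposited values are FPKM, in 1 table per library. The submitters' processing notes name HISAT2 2.1.0, DESeq, GRCm38 and mm10. The step from alignments to FPKM and its annotation are not given. FPKM sets each gene against the library total, so a change in abundant genes moves all other values. Rows without a gene name were left out of the tests and held 0.75% to 3.93% of the FPKM of a library.

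The design had provided for counts or normalized values, and limma 3.58.1, run in R 4.3.3 with its variance trend, was used on log2(FPKM + 1) with 2 groups per fit and a two-sided test. Rows needed 1 FPKM in at least 3 of 6 libraries. The 2 fold changes of a gene were compared by an interaction term over the 8754 genes tested in both kinds. The script was tested on simulated data. The members and the lists were chosen with earlier results of these data known. Named genes were the 9 members, Phb, up to 6 called genes of each list with the largest absolute log2 fold change, and fixed receptors and targets. Some genes that this rule names are not reported here. Positions and names are as in the GRCm38 annotation (GENCODE), and promoters are from RefSeq GRCm38.p6. Alternatives were another pseudocount, no filter, 3 other scalings, no trend, a replicate block, summed rows and each library left out. Summaries used pandas 2.3.3 and numpy 2.4.6 in Python 3.11.15, and figures matplotlib 3.10.9.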

Additional observations from a re-analysis of the deposited data

Results flagged for a closer look

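The Phb knockout effect in spermatocytes and the knockdown effect in GC2 cells differed for 4 members in the test of the difference, in which 60.7% of 8754 genes were called. The difference (spermatocyte minus GC2, log2) was -1.09 for Rdh10, -3.07 for Rdh11, 1.32 for Aldh1a1 and -0.70 for Rbp4. The Aldh1a1 and Rbp4 rows held unlike numbers of transcripts in GC2 cells and spermatocytes. Each kind of sample had its own tables, and the knockdown and knockout differ in method and cell source, which cannot be told apart from the kind of sample.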

How the results depend on the processing

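In GC2 cells, leaving out each library gave 744 to 962 rows called higher and 1034 to 1296 lower, beside 1153 and 1496 with all libraries. Members called higher ranged from 1 to 3, beside 4 with all libraries. Rdh10 kept its call under every setting run. Dhrs3 lost it without control replicate 1 or 2 or knockdown replicate 2 or 3 (adjusted p 0.058 to 0.067). Aldh1a1 lost it in 5 of the library-out fits (0.064 to 0.084) and with no filter (0.051). Rbp4 lost it in 3 library-out fits (0.054 to 0.065). With no filter 1 member, Stra6, was called lower. In spermatocytes, members called higher and lower remained 5 and 3 in all settings except the 3 scalings, where Crabp1 was lost. Under quantile scaling 53.6% of GC2 calls were higher, beside 43.5% as deposited. The cause was not tested.

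The signs of small values turned. Rdh11 in GC2 was 0.02 under median centring, quantile scaling and without control replicate 1 or 2 (-0.11 to 0.02 over the library-out fits). Rbp4 in spermatocytes was 0.10 under median centring, 0.11 under quantile scaling, 0.02 without mitochondrial rows, 0.04 without control replicate 1 and 0.01 without knockout replicate 3 (-0.15 to 0.04 over the library-out fits). Crabp1 was 0.02 under median centring. The Dhrs3 difference was -0.21 under quantile scaling, and -0.01 without GC2 control replicate 3, -0.06 without GC2 knockdown replicate 1, -0.01 without spermatocyte control replicate 1 and -0.02 without spermatocyte knockout replicate 2 (-0.06 to 0.12 over the library-out fits).

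With the replicate block, 853 GC2 rows were called higher and 1132 lower, with 3 members higher (Rbp4 lost, adjusted p = 0.066) and 0 lower. In spermatocytes the block gave 6427 higher and 6055 lower rows. The labels state no pairing by replicate number, so whether same-numbered libraries were paired is unknown. Deviations of same-numbered GC2 libraries correlated at 0.124, 0.078 and 0.0607, each above other numbers. Those of spermatocytes correlated at 0.00744, -0.0539 and 0.00738. These values are only a hint from the data. Sequencing depth is unknown for GC2, so low values such as Stra6 cannot be given a counting error.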
